A study of Triticum aestivum with 12 samples.

Results

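Developing grains of a wheat landrace with mineral-rich grain, IITR26, were compared with those of a cultivar with mineral-poor grain, WL711, at 28 days after anthesis (DAA). The comparison was chosen as the 3 IITR26 arrays against the 3 WL711 arrays of this stage, 6 of the 12 arrays in the series, and covers 61179 of 61290 probe sets, without the 111 Affymetrix controls. Both genotypes are bread wheat, were grown in the same experimental field with no treatment described, and were tagged at flowering. Each sample was the RNA of 3 whole grains from the middle of the ear, hybridized to 1 Affymetrix GeneChip Wheat Genome Array. The other 6 arrays held grains of the same genotypes at 14 DAA and took part in the estimate of the spread. A whole grain holds endosperm, aleurone, embryo and maternal layers, so fewer cells of a type and less RNA per cell cannot be told apart. The study names the samples biological replicates, but nothing in the labels ties a replicate to a plant, so the p-values measure only the spread between these samples.

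By 28 DAA a wheat grain is late in filling. The starchy endosperm lays down starch and storage proteins, fed through the endosperm transfer cells that line the crease, while division of endosperm cells is largely over. Embryo and aleurone then acquire tolerance to drying and accumulate late embryogenesis abundant (LEA) proteins, dehydrins, small heat shock proteins and the oil body proteins oleosin and caleosin. Lipid transfer proteins are small secreted proteins that bind lipids. Pectinesterase inhibitors and expansins act in the cell wall.

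Values are log2 signals relative to the median of the probe set over the 12 arrays, so differences between arrays can be read but the brightness of a probe set cannot, and the presence of a tissue cannot be checked from its markers. The log2 fold change is the mean of the IITR26 arrays minus that of the WL711 arrays, so values above 0 mark a higher signal in IITR26. Whether the genotypes differ in sequence under the probes, which could also change a signal, was not tested. A probe set was called where limma's adjusted p was 0.01 or less and the genotypes were 2 or more log2 units apart. Of the 61179 probe sets, 838 were called (1.37%), of which 346 were higher (0.566%) and 492 lower (0.804%) in IITR26. The median log2 fold change of the called probe sets was 2.70 among the higher and -2.72 among the lower, and 13 higher and 11 lower ones reached 6 in size. The 3 arrays of each genotype did not overlap in 28.2% of all probe sets, and in all 838 called ones. Names come from the study's table of 580 probe sets with putative functions, which it had selected on these same arrays, and from the gene names of the platform annotation. Of the 838 called probe sets, 290 stood in that table and 507 had no entry in either source. With 3 arrays on each side, the smallest two-sided p of an exact permutation test is 0.1.

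Replicate 1 of WL711 stood apart from the other two. Its correlation over all probe sets was 0.412 with replicate 2 and 0.286 with replicate 3, against 0.672 between replicates 2 and 3 and 0.831 to 0.879 among the IITR26 arrays. Without it, 1099 probe sets were called (1.8%), 447 higher (0.731%) and 652 lower (1.07%). Of the 838 calls made with all arrays, 796 remained, 42 were lost and 303 were gained. The SD among the 3 WL711 arrays was over 1 in 553 probe sets, and between replicates 2 and 3 alone in 76. Counts of calls below are from all arrays, followed by those without this array where they differ.

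**Figure D1:**
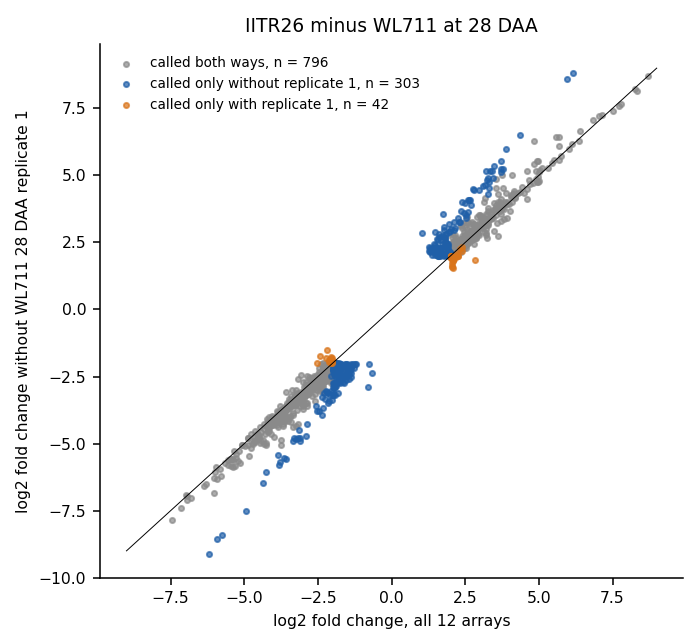
Log2 fold change of IITR26 over WL711 at 28 DAA with all 12 arrays (horizontal axis) and without WL711 28 DAA replicate 1 (vertical axis). Points are the probe sets called in either fit, the line marks equal values, and the 303 calls gained without the array lie farther from 0 on the vertical axis than on the horizontal one.

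The array did not move all genotype differences alike. To place it, probe sets were called from the other 11 arrays, and its value was set between the mean of WL711 replicates 2 and 3 (position 0) and the mean of the IITR26 arrays (position 1). Over the 1099 called probe sets its median position was 0.195, with quartiles of 0.053 and 0.484. The other 5 arrays, each left out in turn, had medians of -0.075 to 0.107. In the 535 whose genotypes differed by less than 1 on the log2 scale at 14 DAA, the median position of the array was 0.147, and 11 (2.06%) lay beyond 0.8. In the 317 that were called in the same direction at 14 DAA, the positions formed a pair of peaks, with 33.8% within 0.2 of the WL711 mean and 40.4% beyond 0.8, at the level of IITR26. None of the other 5 arrays had a probe set beyond 0.8 in the corresponding set. Those sets, of 154 to 164 probe sets, were however called with replicate 1 among the arrays, which works against the inclusion of probe sets where it sits with IITR26.

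A choice of probe sets that used no array of 28 DAA gave the same order. From the 6 arrays of 14 DAA alone, 788 probe sets were called between the genotypes. On a scale from the WL711 mean to the IITR26 mean of that stage, 93.5% to 94.7% of them were nearer to IITR26 on the 3 IITR26 arrays of 28 DAA. On WL711 replicates 2 and 3 this share was 58.6% and 59.1%, a level that includes the change with stage, and on replicate 1 it was 79.4%. The array also had values found on no other array. It lay at least 2 log2 units above or below all of the other 11 arrays in 89 probe sets, 41 above and 48 below. For the other arrays of 28 DAA this number was 0 to 32. With all arrays 0 of the 89 were called, and without replicate 1 there were 3. None stood in the table of functions, and 3 had a gene name.

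**Figure D2:**
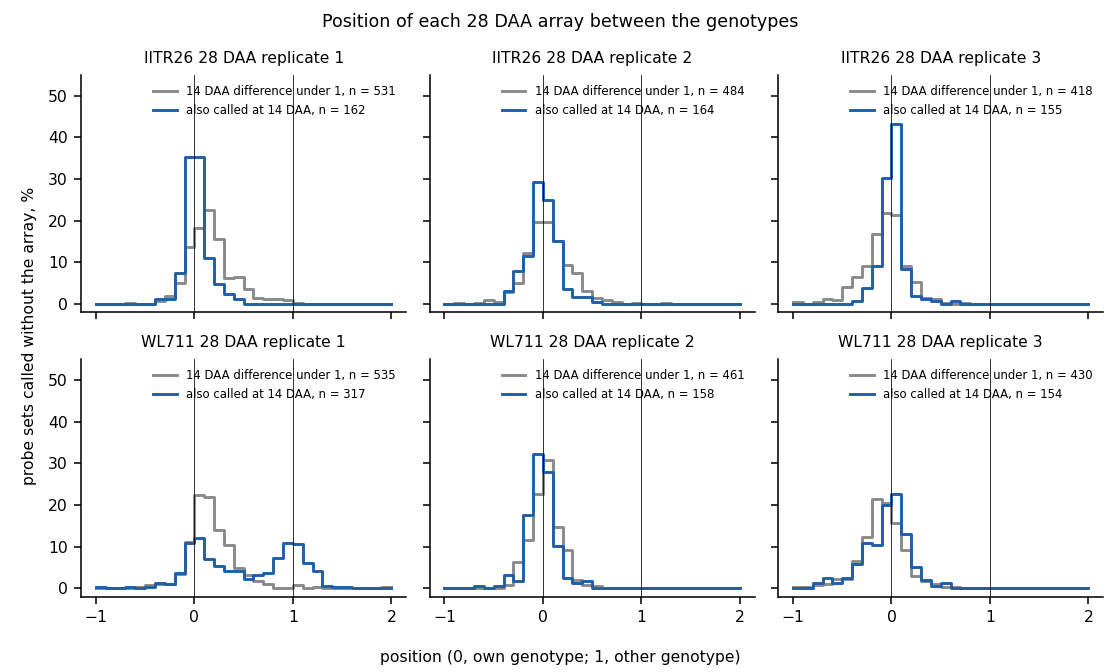
Position of each array of 28 DAA, left out of the call, between the mean of its own genotype (0) and that of the other genotype (1), as the percentage of probe sets per bin of 0.1, with values beyond the axis in the outer bins. The blue line is for probe sets also called at 14 DAA and the grey line for those with a 14 DAA difference under 1, and only WL711 replicate 1 has a second peak near 1, in the blue line.

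The examples that follow are named probe sets whose call changed without this array, most of them among the largest changes. The omega-gliadin, a sulfur-poor storage protein of the endosperm, had values of 0.91, 0.14 and 0.68 on the IITR26 arrays and of -0.14, -8.60 and -7.45 on the WL711 arrays. Replicate 1 of WL711 was next to IITR26 and the other replicates were far below. The log2 fold change was 5.97 (SE 1.58, adjusted p = 0.0221) with all arrays, so the probe set was not called, and 8.60 (SE 0.32, adjusted p = 5.34e-08) without replicate 1. The gamma-gliadin B-I followed the same pattern, with 0.63, -2.41 and -2.86 on the WL711 arrays and 0.23, -0.08 and 0.08 on the IITR26 arrays. Its log2 fold change was 1.62 (adjusted p = 0.132) and, without the array, 2.71 (adjusted p = 7.61e-06). A chitinase, an enzyme that cleaves fungal cell walls, read 0.33, -4.78 and -4.27 in WL711 and 0.42, 0.29 and 0.40 in IITR26. Its log2 fold change was 3.28 (adjusted p = 0.0393) and 4.90 without replicate 1 (adjusted p = 2.30e-07). For the transcription elongation factor 1 the values in WL711 were 0.77, -3.98 and -3.71, and for the helicase of the U5 small nuclear ribonucleoprotein, a part of the spliceosome, they were 0.14, -4.29 and -4.01. Their log2 fold changes rose from 3.71 to 5.25 and from 3.32 to 4.75 without the array, and both were called only then. The aquaporin PIP1, a water channel of the plasma membrane, gave 0.16, -3.24 and -2.14 in WL711 against -0.09 to 0.50 in IITR26, with log2 fold changes of 1.97 and 2.91.

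The same held in the other direction. An aspartyl protease had values of -0.98, -0.73 and -0.57 in IITR26 and of -0.64, 3.22 and 4.90 in WL711. Its log2 fold change was -3.25 (adjusted p = 0.0418) with all arrays and -4.82 (adjusted p = 1.08e-05) without replicate 1. A wall hydroxyproline-rich glycoprotein read -0.16, 4.22 and 3.55 in WL711, with log2 fold changes of -3.15 and -4.50. FtsH protease, a pectinesterase inhibitor domain protein and the defensin Tk-AMP-D4 also became calls without the array, at -3.08, -3.32 and -3.08. Of the 303 probe sets gained, 171 (56.4%) had replicate 1 beyond position 0.8, as had 1 of the 796 that remained, a split that the test itself largely sets. The 6 named calls that were lost lay at the fold threshold. They were a chitinase family antimicrobial peptide, a chlorophyll A-B binding protein, nodulin MtN3, a tetratricopeptide repeat protein, GRF-interacting factor 2 and a ubiquitin-fold modifier, with log2 fold changes of 2.01 to 2.02 or -2.08 to -2.04 that became 1.93 to 1.99 or -1.98 to -1.86. Of the 89 probe sets with an extreme value on replicate 1 only, 3 had a gene name. LOC100037526 read 8.36 there and -0.92 to 0.07 on the other arrays of 28 DAA, LTP3, a lipid transfer protein, read -5.47 against -1.42 to 0.13, and LOC542851 read -5.99 against -0.40 to 0.29. None of them was called with all arrays.

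**Figure D3:**
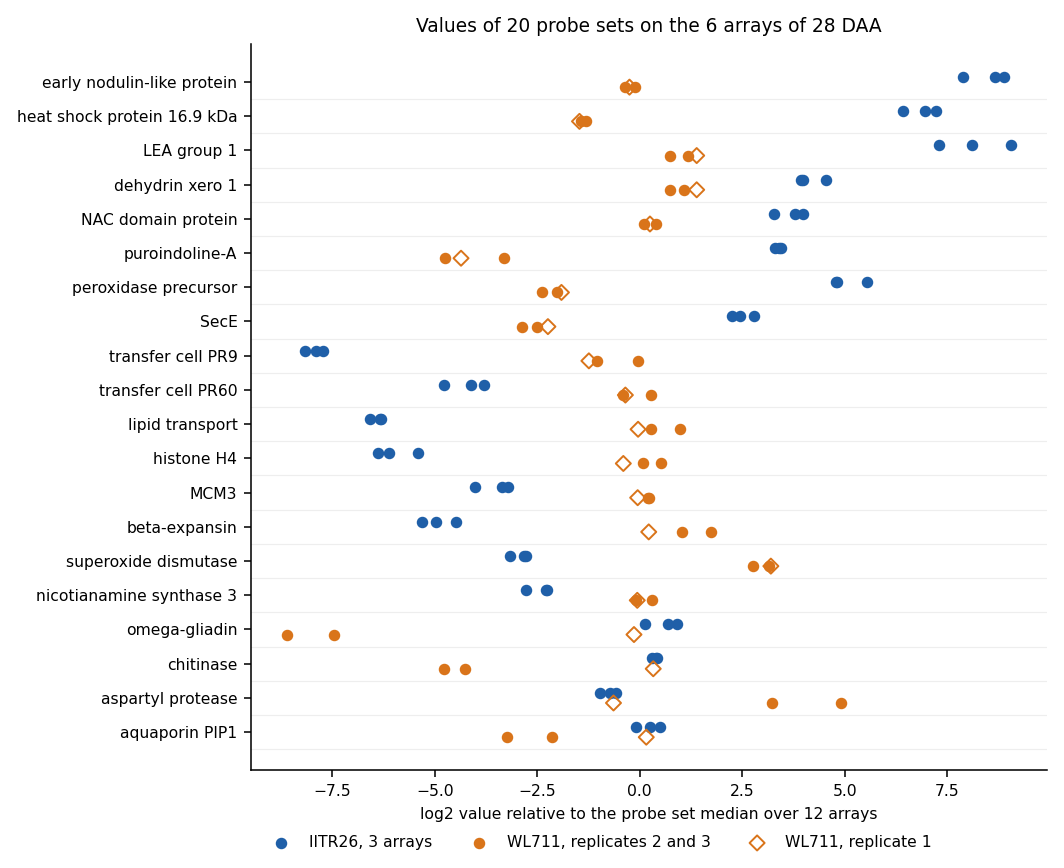
Log2 values of 20 named probe sets on the 6 arrays of 28 DAA, relative to the median over 12 arrays. Blue points are the 3 IITR26 arrays, filled orange points WL711 replicates 2 and 3, and the open diamond WL711 replicate 1, which lies with the other WL711 arrays in the upper 16 rows and with IITR26 in the last 4.

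Proteins of seed drying and embryo maturation were mostly higher in IITR26. Of 9 LEA and desiccation proteins in the table of functions, 5 were called higher, 1 lower and 3 were not called, with a median log2 fold change of 3.09, and the same counts held without WL711 replicate 1. For comparison, 18.8% of all 580 probe sets of the table were called higher and 31.2% lower with all arrays, and 22.4% and 35.5% without the array, and since the study picked this table on these arrays its direction is no independent evidence. One LEA group 1 probe set read 7.30, 8.11 and 9.06 in IITR26 and 1.39, 1.18 and 0.75 in WL711. All IITR26 arrays were far above all WL711 arrays, by 7.05 on the log2 scale (SE 0.34, adjusted p = 1.60e-07) and by 7.20 without replicate 1. At 14 DAA its difference was -0.02, and the interaction, which is the difference between the log2 fold changes of the 2 stages, was 7.07 (adjusted p = 9.05e-06). The dehydrin xero 1, a hydrophilic protein of drying tissue, had values of 3.94, 3.99 and 4.54 in IITR26 and of 1.39, 1.07 and 0.75 in WL711, a difference of 3.09 that was 0.07 at 14 DAA and, after another quantile normalization, 1.97 and no longer called. The small hydrophilic plant seed protein stood at 4.0, 4.22 and 4.05 against 0.89, 0.87 and 0.76, a difference of 3.25 on the log2 scale (adjusted p = 3.28e-07). The embryonic protein DC-8 was higher at both stages, by 3.10 at 28 DAA and 3.21 at 14 DAA. A second LEA group 1 probe set ran the other way, with -1.73, -1.95 and -1.54 in IITR26 and 2.35, 2.36 and 2.28 in WL711, a log2 fold change of -4.07 that was -3.74 at 14 DAA. The 3 members without a call were a desiccation-related protein, a second DC-8 protein and LEA protein 12, at 0.18, 0.25 and 1.10, and these were the ones that were higher by 3.56, 2.46 and 3.96 at 14 DAA. The embryo and aleurone markers, 7 probe sets that include the LEA group 1, dehydrin, oleosin and caleosin ones, had mean log2 values of 2.25 to 2.67 on the IITR26 arrays and 0.50 to 0.89 on the WL711 arrays, with 4 members higher and 1 lower. Whether the share of these tissues in the grains differed was not tested.

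Both oil body proteins were called higher. Caleosin read 1.56, 2.09 and 1.97 in IITR26 and -0.90, -0.71 and -1.42 in WL711, a log2 fold change of 2.88 (SE 0.24, adjusted p = 1.29e-05). It was one of 12 probe sets called in opposite directions at the 2 stages, since at 14 DAA it was lower in IITR26, by -2.35. Oleosin had a log2 fold change of 2.69 (adjusted p = 0.000153) and 3.48 at 14 DAA, and was not called after another quantile normalization (1.70, adjusted p = 0.0145). Among 4 heat shock proteins and chaperones of the table, 2 were called higher, 1 lower, at -2.64, and 1 was not called. Without replicate 1 there were 3 higher and 1 lower, and after another quantile normalization 1 higher and 0 lower. A class I small heat shock protein, a chaperone, stood at 7.24, 6.42 and 6.97 in IITR26 and at -1.47, -1.30 and -1.43 in WL711. Its log2 fold change of 8.27 (SE 0.69, adjusted p = 1.12e-05) was the second largest among the named higher calls and 8.24 without replicate 1. The largest was that of an early nodulin-like protein, a relative of copper-binding proteins of the cell surface, with 7.89, 8.89 and 8.67 against -0.25, -0.35 and -0.12, a log2 fold change of 8.72 (SE 0.47, adjusted p = 4.46e-07) that was 0.98 at 14 DAA. NAC domain transcription factors, a plant family that includes regulators of drought responses, had a pair of probe sets called higher. One read 3.27, 3.78 and 3.98 in IITR26 and 0.25, 0.11 and 0.39 in WL711, with a log2 fold change of 3.43 (adjusted p = 2.40e-07), and NAC domain-containing protein 67 had 3.28 (adjusted p = 2.99e-05). Their differences at 14 DAA were -0.18 and -0.66. Nam-1, also a NAC factor, was not called at 28 DAA, with 0.15, and its difference at 14 DAA was 2.0. An aminotransferase and LOC543264 had log2 fold changes of 5.53 and 6.11. Their interactions were 5.23 (adjusted p = 7.26e-07) and 6.17 (adjusted p = 0.000306), the differences at 14 DAA being 0.29 and -0.07. Outside the table of functions, 10 probe sets that the platform annotation names as Em, LEA, Rab or COR proteins, a list formed after the data were seen, had a median log2 fold change of 1.19. Limma called 0 of them after adjustment, and before adjustment its p was under 0.05 for 4, all higher. Over all 61179 probe sets, that p was under 0.05 for 8167 higher and 9014 lower ones. The methods' t-test after adjustment also called 0 of the 10, but it called only 1 of all probe sets, so its count says nothing about this list. The largest change of the 10, in an EM probe set, came from values of 5.71, 6.14 and 5.84 in IITR26 and 4.44, 4.22 and 2.82 in WL711. Its log2 fold change was 2.08, with an adjusted p of 0.0221 in limma.

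Other probe sets were higher in IITR26 at both stages. Puroindoline-A, a lipid-binding protein of the starch granule surface that softens the grain, read 3.45, 3.30 and 3.39 in IITR26 and -4.36, -4.74 and -3.30 in WL711. The log2 fold change was 7.51 (SE 0.32, adjusted p = 8.61e-08), 7.40 without replicate 1, and 9.99 at 14 DAA. A chromatin associated protein, pherophorin-C2, a Bowman-Birk inhibitor of serine proteases, SecE, a subunit of a protein translocation channel, and a GATA zinc finger protein had log2 fold changes of 6.85, 5.76, 5.31, 5.04 and 5.45, and of 7.10, 6.69, 5.16, 5.51 and 3.61 at 14 DAA. SecE stood at 2.45, 2.80 and 2.24 in IITR26 and at -2.24, -2.87 and -2.51 in WL711. Replicate 1 of WL711 lay with the other WL711 arrays for these 6 probe sets, at positions of -0.05 to 0.10. F-box proteins, which select targets for degradation, and ankyrin repeat proteins gave 4 higher calls of 9, with log2 fold changes of 3.81 to 4.90. Without replicate 1 the count was 7 higher and 1 lower, and in 3 of the 8 probe sets called then the array lay beyond position 0.8. A peroxidase precursor, which oxidizes phenolics in the wall, read 4.79, 5.54 and 4.81 against -1.91, -2.01 and -2.38, a log2 fold change of 7.14 (SE 0.23, adjusted p = 1.77e-08) that was 2.98 at 14 DAA. Other peroxidase precursor probe sets differed in direction at 28 DAA. They were called higher at 2.14, called lower at -3.29, and not called at 0.88 and 0.02.

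Of 3 probe sets for endosperm transfer cell proteins, 2 were called lower in IITR26. The endosperm transfer cell protein PR9, named after the cells that take up nutrients from the mother plant, had values of -7.74, -7.90 and -8.17 in IITR26 and of -1.24, -1.05 and -0.03 in WL711. Its log2 fold change of -7.16 (SE 0.26, adjusted p = 3.42e-08) was the lowest of the named probe sets, and -7.39 without replicate 1. At 14 DAA the difference was -1.25, and the interaction was -5.91 (adjusted p = 6.89e-06). PR60, of the same cells, stood at -3.79, -4.78 and -4.11 against -0.35, -0.42 and 0.27, a log2 fold change of -4.06 (SE 0.27, adjusted p = 2.37e-06) that was -0.17 at 14 DAA. The third transfer cell probe set, ZmEBE-1, did not pass, with -2.16, -2.22 and -2.40 against -2.12, -0.98 and -0.16 and an adjusted p of 0.0599. The mean log2 value over the 3 was -4.97 to -4.56 on the IITR26 arrays and -1.24 to 0.03 on the WL711 arrays, and the part of these cells' share of the grain was not tested. Markers of the green pericarp, 8 probe sets such as chlorophyll a-b binding proteins, also lay lower, at -2.05 to -1.97 against -0.78 to -0.56, with 2 members called, and 1 without WL711 replicate 1 or after another quantile normalization. Of 36 photosynthesis and chloroplast probe sets named by the platform annotation, a list formed after the data were seen, limma called 0. The methods' t-test after adjustment also called 0, but it called only 1 of all probe sets, so its count says nothing about this list. Before adjustment, limma's p was under 0.05 for 11 lower and 0 higher of the 36, against 9014 lower and 8167 higher of all 61179. The median log2 fold change of the 36 was -0.02.

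Lipid transfer and lipid transport proteins, the largest group with a named function, also had the most lower calls among these groups. Of 26 members, 15 were called lower (57.7%), 0 higher and 11 not called, against 31.2% lower in the whole table. Some smaller groups had larger lower shares, such as core histones (100%) and cell division proteins (80%). The median log2 fold change of the 26 was -2.26. Their counts were the same without replicate 1, whose position was beyond 0.8 in 0 of the 15. Another quantile normalization of the values left 11 lower. At 14 DAA the list had 14 lower calls and a median of -2.15, but the interaction was called in 17 of the 26 members. The 6 members with the largest change at 28 DAA were not called at 14 DAA. A lipid transport probe set read -6.32, -6.33 and -6.57 in IITR26 and -0.04, 0.27 and 0.98 in WL711, a log2 fold change of -6.81 (SE 0.25, adjusted p = 3.42e-08). A lipid binding and transport probe set had a log2 fold change of -6.94 and LTPL31 one of -6.00, against -1.15 and 0.23 at 14 DAA. LTPL39 stood at -0.99, -1.22 and -1.34 in IITR26 and at 3.96, 4.39 and 4.39 in WL711, a log2 fold change of -5.43, while at 14 DAA its difference was 1.28. A pair of nonspecific lipid-transfer proteins had -5.64 and -5.28 at 28 DAA and 0.65 and 1.35 at 14 DAA. Of the 26 probe sets, 15 carry a suffix that marks probes shared between transcripts, so members may measure the same message. GDSL lipases, which hydrolyse lipid esters, were lower in 3 of 5 probe sets with log2 fold changes of -2.60 to -2.09, and 0 of them remained called after another quantile normalization.

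Genes of chromatin assembly, DNA replication and cell division were lower in IITR26. All 7 core histone probe sets of the table, which code for the proteins that package new DNA, were called lower, with a median log2 fold change of -3.91 and of -4.19 without replicate 1. A histone H4 probe set read -6.39, -6.11 and -5.42 in IITR26 and -0.40, 0.09 and 0.51 in WL711, a log2 fold change of -6.04 (SE 0.28, adjusted p = 1.17e-07). A second H4 probe set had -4.64 and a histone H3 probe set -3.91, and at 14 DAA the 3 differences were -0.37, 0.52 and -0.37. Only 2 of the 7 were called lower at 14 DAA, and the interaction was called for 5. The platform annotation names 18 probe sets as histones H2A or H2B, a list formed after the data were seen, of which 17 were outside the study's table. Of these 17, 9 were called lower, and over all 18 the median log2 fold change was -2.18. They belong to 5 genes, and 11 of the 18 carry a suffix for shared probes, so they are not separate measurements. The H2A-9 probe set with the largest change stood at -5.46, -5.24 and -5.26 against -1.38, -0.71 and -0.32, a difference of -4.52 on the log2 scale (adjusted p = 2.92e-06).

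Of 14 DNA replication proteins, 10 were called lower, 1 higher and 3 were not called, and without replicate 1 there were 10 lower and 2 higher. MCM3, a subunit of the helicase that opens DNA at replication origins, read -3.22, -3.36 and -4.02 in IITR26 and -0.05, 0.19 and 0.23 in WL711. The log2 fold change was -3.66 (SE 0.21, adjusted p = 7.69e-07) at 28 DAA and -0.30 at 14 DAA. The interaction was -3.36 (adjusted p = 4.94e-05). DNA topoisomerase, which relieves torsion, and RPA2A, a subunit of the protein that coats single-stranded DNA, had -3.83 and -3.36. The clamp protein proliferating cell nuclear antigen had -3.72 at 28 DAA and -3.69 at 14 DAA for its strongest probe set. Of 10 cell division proteins, 8 were lower and 1 was higher, and without replicate 1 the counts were 7 and 1. Kinesin motors, a structural maintenance of chromosomes (SMC) domain protein and E2F TARGET GENE 1 had log2 fold changes of -2.87 to -2.51 among the members described, and a microtubule-associated protein was higher by 3.28. After another quantile normalization all 7 histones and 8 replication proteins stayed lower, but of the cell division proteins only 2. The marker list for dividing cells (histones, MCM subunits, proliferating cell nuclear antigen and cyclins) held 15 probe sets, of which 14 were lower with and without replicate 1, against 4 lower and 1 higher at 14 DAA. Their mean log2 value was -2.97 to -2.76 on the IITR26 arrays and 0.07 to 0.42 on the WL711 arrays.

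**Figure D4:**
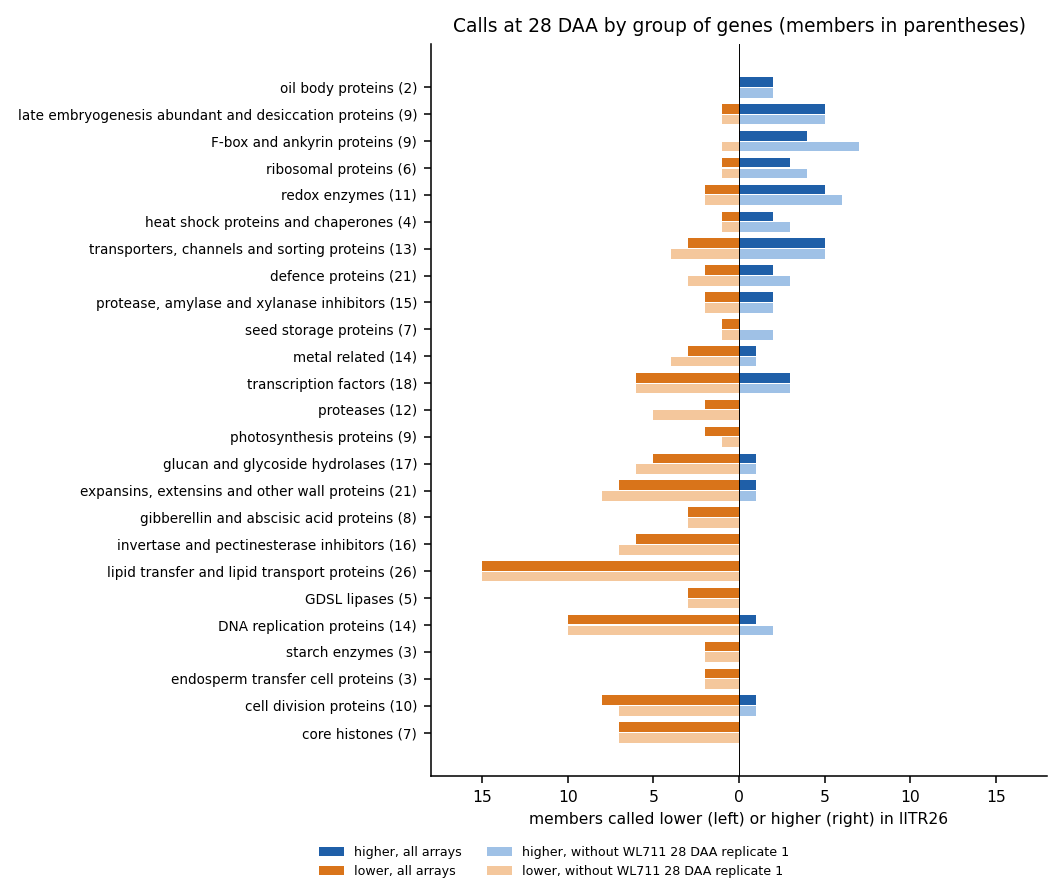
Number of probe sets called lower (left) and higher (right) in IITR26 at 28 DAA in 25 groups of the table of functions, with the size of each group in parentheses. Dark bars are from all arrays and pale bars from the fit without WL711 28 DAA replicate 1, and F-box and ankyrin proteins, proteases and storage proteins change most between them.

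Starch enzymes were lower for 2 of 3 members. For the glucose-1-phosphate adenylyltransferase large subunit, of the enzyme that forms ADP-glucose for starch, the values stood at -2.77, -2.26 and -2.99 in IITR26 and at -0.02, 0.00 and 0.17 in WL711, a log2 fold change of -2.72 (SE 0.18, adjusted p = 1.90e-06). Isoamylase wDBE-D1, which trims the branches of amylopectin, had -2.42. Their differences at 14 DAA were -0.66 and 0.61, and neither remained called after another quantile normalization. The third member ran the other way without a call, at 1.68, and at 2.55 at 14 DAA. After another quantile normalization the 3 members gave 1 higher and 0 lower calls. The starchy endosperm markers, 5 probe sets of gliadins, puroindoline-A and the adenylyltransferase subunit, had mean log2 values of 0.13 to 0.54 on the IITR26 arrays and of -0.58, -3.00 and -2.71 on the WL711 arrays. Their median log2 fold change was 1.62, with 1 higher and 1 lower call, and 3 and 1 without replicate 1. The platform annotation names 11 gliadin or low molecular weight glutenin probe sets, a list formed after the data were seen. Limma called 0 of these 11, with a median log2 fold change of 0.11, and without replicate 1 it called 1 higher. Of the 7 storage proteins, 1 was lower and 0 higher with all arrays, and 1 and 2 without replicate 1. The avenin-like protein was lower in IITR26, with -2.46, -3.03 and -2.74 against 1.39, 1.55 and 1.43 and a log2 fold change of -4.20 (adjusted p = 6.49e-08). Both cupin family probe sets, an alfa gliadin and the embryo globulin lay between -0.31 and 0.26, while at 14 DAA 6 of the 7 storage proteins were called higher in IITR26.

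Among 21 expansins, extensins and other wall proteins, 7 were lower, 1 was higher and 13 were not called, and without replicate 1 the counts were 8 lower and 1 higher. The lower share of 33.3% was close to that of the whole table of functions. Beta-expansin, which loosens the wall, read -4.48, -5.31 and -4.98 in IITR26 and 0.22, 1.02 and 1.75 in WL711. The log2 fold change of -5.92 (SE 0.36, adjusted p = 1.03e-06) stood against 2.94 at 14 DAA, and the interaction was -8.86 (adjusted p = 3.60e-06). An expansin precursor turned in the same way, from 3.13 to -3.81, with an adjusted p of 0.011 at 28 DAA after another quantile normalization. These are among the 10 probe sets called higher in IITR26 at 14 DAA and lower at 28 DAA. Of 16 invertase and pectinesterase inhibitors, 6 were lower and 0 higher, and 7 were lower without the array, which lay at a median position of 0.46 in those 7. Their lower share with all arrays was 37.5%, against 31.2% in the whole table. A pectin-esterase inhibitor like probe set had values of -3.95, -4.48 and -3.96 in IITR26 and of -0.08, 1.20 and 1.98 in WL711, with a log2 fold change of -5.16 and of -5.72 without replicate 1. At 14 DAA, 14 of the 16 were lower. Of 17 glucan and glycoside hydrolases, 5 were lower and 1 was higher, and 6 and 1 without the array. Their lower share of 29.4% with all arrays was also close to that of the whole table. An endoglucanase with -5.15, -5.63 and -5.38 against -1.87, -1.13 and -0.67 had the largest change, -4.17 (adjusted p = 2.36e-06).

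**Figure D5:**
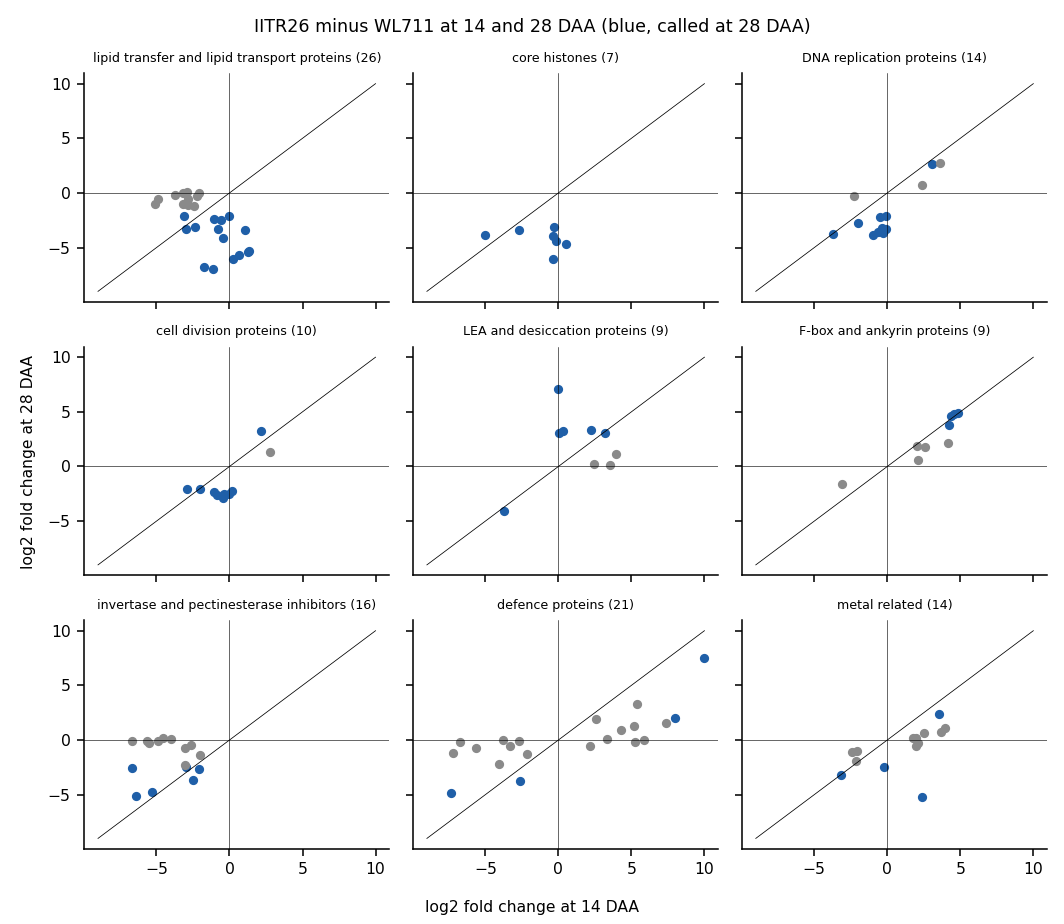
Log2 fold change of IITR26 over WL711 at 14 DAA (horizontal axis) and 28 DAA (vertical axis) for the members of 9 groups of the table of functions, with the size of each group in parentheses. Blue points were called at 28 DAA, the slanted line marks equal values, and histones and replication proteins lie mostly below 0 at 28 DAA with 14 DAA values close to 0.

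Defence proteins had few calls at this stage. Of 21 members, 2 were higher and 2 lower, and 3 and 3 without replicate 1, against 11 higher and 10 lower at 14 DAA. With all arrays the shares were 9.52% higher and 9.52% lower, against 18.8% and 31.2% of the whole table. The study picked the table on these arrays for a difference at either stage, and all 21 were called at 14 DAA. The contrast between the stages is therefore a description only. Purothionin, a membrane-active antimicrobial peptide, stood at -2.21, -2.42 and -2.48 in IITR26 and at 1.25, 2.88 and 3.28 in WL711. Replicate 1 was the lowest WL711 array, and the log2 fold change was -4.84 (SE 0.40, adjusted p = 1.15e-05) with it and -5.45 without it. A chitinase family antimicrobial peptide fell short of the fold threshold without the array, at 1.93, and its difference at 14 DAA was 8.0. Cystatin, an inhibitor of cysteine proteases, read -4.27, -4.79 and -4.50 in IITR26 and -0.40, 0.22 and 0.59 in WL711, a log2 fold change of -4.66 (SE 0.25, adjusted p = 4.18e-07). Superoxide dismutase, which removes superoxide, was at -2.83, -3.17 and -2.77 against 3.20, 2.77 and 3.16, and its log2 fold change of -5.97 (SE 0.18, adjusted p = 1.36e-08) was -6.61 at 14 DAA. Of the 11 redox enzymes, 5 were higher and 2 lower, and 6 and 2 without replicate 1. A MYB transcription factor stood at -4.65, -5.86 and -4.73 in IITR26 and between -0.02 and 0.02 in WL711, a difference of -5.07 on the log2 scale (adjusted p = 9.33e-06).

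The mineral content of the grain is the trait in which the genotypes were chosen to differ, and 14 probe sets of the table are grouped there as metal related. Of these, 1 was higher and 3 were lower, and 1 and 4 without replicate 1. With all arrays the shares of 7.14% higher and 21.4% lower were below the 18.8% and 31.2% of the whole table. Metallothionein, a cysteine-rich protein that binds metals, read 1.21, 1.06 and 1.03 in IITR26 and -1.54, -1.03 and -1.30 in WL711. The arrays of the genotypes did not overlap, and the log2 fold change was 2.39 (SE 0.18, adjusted p = 4.81e-06), 2.26 without replicate 1 and 3.56 at 14 DAA. Nicotianamine synthase 3 makes nicotianamine, a chelator of iron and zinc in plants. It stood at -2.29, -2.27 and -2.77 in IITR26 and at -0.06, 0.30 and -0.08 in WL711, with a log2 fold change of -2.49 (SE 0.16, adjusted p = 1.86e-06) that was -0.19 at 14 DAA. The interaction was -2.30 (adjusted p = 0.000106). Its call ended after another quantile normalization, at -1.83. Glycolate oxidase, an enzyme of the glycolate pathway, was lower by -3.16 at 28 DAA and -3.14 at 14 DAA. Flavanone 3-hydroxylase, of flavonoid synthesis, had -3.32, -4.09 and -3.52 against 0.66, 1.40 and 2.62, a log2 fold change of -5.20 (SE 0.40, adjusted p = 6.79e-06) against 2.35 at 14 DAA. A protein phosphatase type 2c became a call without replicate 1, at -2.08 after -1.92. The aleurone-specific Nam-1 and the manganese ion binding and transition metal ion binding probe sets lay at 0.15, 0.14 and -0.52 and were not called.

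Among 13 transporters, channels and sorting proteins, 5 were higher and 3 lower, with 5 and 4 without replicate 1. A vacuolar-sorting receptor, which directs proteins to the storage vacuole, read 1.64, 1.58 and 1.14 in IITR26 and -2.14, -1.14 and -1.95 in WL711, a log2 fold change of 3.20 (SE 0.22, adjusted p = 2.58e-06). An amino acid transporter stood at 2.24, 2.04 and 2.49 against -0.04, 0.04 and -0.07, with 2.28 (adjusted p = 2.15e-06), and 1.80 after another quantile normalization. An ammonium transporter, an aluminum-activated malate transporter and the phosphoenolpyruvate phosphate translocator of the plastid were lower, with log2 fold changes of -3.44, -2.90 and -2.73. The ammonium transporter had its highest IITR26 value at -3.83 and its lowest WL711 value, that of replicate 1, at -2.26, and its call ended after another quantile normalization (adjusted p = 0.0362). The tonoplast aquaporin TIP3 had values of 0.26, 0.66 and 0.47 in IITR26 and of 0.48, 0.05 and -0.05 in WL711. These overlap, and its log2 fold change was 0.30, against 2.98 at 14 DAA.

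Of the 838 calls at 28 DAA, 178 were also called in the same direction at 14 DAA, which is 21.2% of the calls at 28 DAA and 21.3% of the 836 at 14 DAA. Without replicate 1 these were 317 probe sets, 28.8% of 1099 and 35.8% of 886. A log2 difference under 1 at 14 DAA was found in 476 of the 838. The interaction was called in 933 probe sets (1.53%), and in 389 of the 838. Without replicate 1 it was called in 966 probe sets, and in 455 of the 1099. The 149 probe sets of the table with no function included 40 higher and 39 lower calls, and 46 and 53 without replicate 1.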

How the data were processed

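The authors scanned the arrays and used GeneSpring GX (v12) for Robust Multi-array Average (RMA) normalization. The deposited values are log2 signals, shifted so that each probe set has a median of 0 over the 12 arrays, a step the methods do not describe. Scanner files were not used here. Tests used limma 3.58.1 under R 4.3.3, with lmFit and eBayes, 1 mean for each of the 4 groups, 8 residual degrees of freedom, and p-values adjusted after Benjamini and Hochberg over 61179 probe sets. The 3 arrays of a group limit the precision. The model was tested on simulated data of the same design. Tables were made with Python 3.11.15 and pandas 2.3.3. Gene lists were formed by key words on the putative functions of the study's table, and on platform names, of which 1272 of 1273 matched the gene table. The members and lists were chosen with earlier results of these data known. Named probe sets are the 15 higher and 15 lower calls with a name and the largest log2 fold change without overlap of arrays, up to 5 members of each list, the 6 largest named calls in each direction gained or lost without WL711 28 DAA replicate 1, the study's tables of solute transport and stress, and the 10 named probe sets with the widest spread in WL711. Further list members, and the probe sets called in opposite directions at the 2 stages, were named after their values were seen. Alternatives were the 6 arrays of 28 DAA alone, each array left out, the replicate number as a block, array weights, the methods' t-test, another quantile normalization, aligned medians, no probe sets with suffix x, s or a, and other thresholds. Another quantile normalization evens out the interquartile ranges of the arrays, 0.347 to 0.400 in IITR26 and 0.254 to 0.286 in WL711 at 28 DAA.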

Additional observations from a re-analysis of the deposited data

Results flagged for a closer look

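Of the 30 named probe sets with the largest changes at 28 DAA, 18 had an interaction called in limma, against 1.53% of all probe sets. These 30 were chosen by the difference at 28 DAA, which is part of the interaction, so the choice favours such calls and the count is a description only. The interaction is the log2 fold change at 28 DAA minus that at 14 DAA. It was positive for the early nodulin-like protein (7.75), LEA group 1 (7.07), LOC543264 (6.17), the aminotransferase (5.23) and the peroxidase precursor (4.17). It was negative for beta-expansin (-8.86), the egg apparatus protein (-8.16), flavanone 3-hydroxylase (-7.55), LTPL39 (-6.71), the nonspecific lipid-transfer proteins (-6.62 and -6.29), LTPL31 (-6.23), PR9 (-5.91), the lipid binding and transport (-5.79) and lipid transport (-5.10) probe sets, histone H4 (-5.67) and an RNA recognition motif protein (-4.22). For puroindoline-A the interaction of -2.47 left the sign of the difference as it was, and it was not called when any one of the IITR26 arrays of 28 DAA was left out.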

How the results depend on the processing

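Counts of higher and lower calls, 346 and 492, were 179 and 303 after another quantile normalization, 1323 and 1878 at a log2 fold change of 1, and 0 and 1 by the methods' t-test with Benjamini-Hochberg adjustment (286 and 443 unadjusted). After removal of the 12726 probe sets of suffix x, s or a, which held 282 of the 838 calls, 252 were higher and 301 lower. The t-test on 3 arrays a side called 0 list members, against 131. With an array left out in turn, counts ranged from 295 to 447 higher and from 448 to 652 lower, the highest without WL711 replicate 1. On the 6 arrays of 28 DAA alone, 267 were higher and 421 lower, and without that replicate, a fit added after the data were seen, 365 and 581. With the replicate number as a block they were 345 and 489. Deviations of same-numbered arrays of the 2 genotypes correlated at -0.043 to 0.0591, and those of differently numbered arrays at -0.129 to 0.0948. With 3 arrays a group this cannot settle whether the numbers pair the samples. The block ended none of the 141 calls among the named probe sets. The quantile step ended 39 of them, 41 of 136 called interactions, and turned no sign of a call. The cause of these losses was not tested. Brightness over background could not be read from centred values.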
